A study of Arabidopsis thaliana with 31 samples.

Results

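The ddb2 photolesion map is the list of the 1166 genomic regions in which DNA of UV-C-treated ddb2 leaves was enriched by antibodies against photolesions, out of 7269 regions in the lists of 5 genotypes. Every region of the list was taken, with its coordinates and its fold enrichment over the input. The ddb2 plants carried the ddb2-3 allele in the Col-0 ecotype, and their leaves were exposed to UV-C at 3000 J/m2 at an age of 18 days according to the labels. The wild type (WT) plants, whose list of 3585 regions served for comparison, were Col-0 plants given the same dose. Genomic DNA of the leaves, pooled over biological replicates and taken immediately upon irradiation, was immunoprecipitated with an anti-CPD and an anti-6,4 PP antibody, with 1 library per antibody and genotype. The only input library came from WT plants, so a difference between the ddb2 and WT genomes in the input cannot be told apart from a difference in photolesions. The regions of both antibodies stand in 1 list without a mark of the antibody. No library was repeated, so no test across samples was possible and every interval given here is a 95% interval that covers counting error only. The list gives no read counts, so that the depth behind a single region is unknown. Per library, the study reports far fewer mapped reads for the ddb2 and WT immunoprecipitated DNA than for the input.

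UV-C fuses neighbouring pyrimidines of a DNA strand, at TT, TC, CT and CC steps. The products are the CPDs, dimers joined by a cyclobutane ring, and the 6,4 PPs, in which a single bond links both bases. DDB2 is the damage-binding protein that recognises such lesions in chromatin and, with DDB1 and CUL4, starts Global Genome Repair, the branch of nucleotide excision repair that acts across the whole genome. In leaves exposed to light, photolyases reverse the same lesions directly.

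The sequences of the most enriched ddb2 regions are shown first, because most of them held short repeats. All are from the plus strand of the TAIR10.1 assembly (RefSeq), 5′ to 3′, and capitals mark stretches of at least 6 units of GA, CT, CA or TG, of at least 12 A or T in a row, or of at least 2 units of the telomere-type heptamer. Regions that touch an untranslated exon are not printed.
chr4:4547921-4548014, in the TE AT4TE19110 (ATDNAI27T9A): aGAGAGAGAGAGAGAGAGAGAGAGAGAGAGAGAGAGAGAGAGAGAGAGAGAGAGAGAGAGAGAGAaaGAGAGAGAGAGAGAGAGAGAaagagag
chr3:8414079-8414191, in AT3G23460: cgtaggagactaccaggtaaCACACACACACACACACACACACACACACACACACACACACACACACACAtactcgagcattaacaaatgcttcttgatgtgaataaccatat
chr2:5099955-5100066, intergenic: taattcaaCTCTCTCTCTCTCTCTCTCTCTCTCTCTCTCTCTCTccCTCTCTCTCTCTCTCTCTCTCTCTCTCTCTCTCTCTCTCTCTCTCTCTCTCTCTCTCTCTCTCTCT
chr3:12670303-12670400, in AT3TE52120 (LIMPET1): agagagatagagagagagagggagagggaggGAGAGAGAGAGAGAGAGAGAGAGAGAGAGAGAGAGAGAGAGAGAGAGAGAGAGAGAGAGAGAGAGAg
chr4:659402-659544, upstream of AT4G01520: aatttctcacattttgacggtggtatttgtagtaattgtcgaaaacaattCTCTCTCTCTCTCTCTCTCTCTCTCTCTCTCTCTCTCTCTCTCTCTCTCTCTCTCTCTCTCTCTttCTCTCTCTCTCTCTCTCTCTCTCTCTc
chr1:15297957-15298089, in AT1TE50365 (ATREP18): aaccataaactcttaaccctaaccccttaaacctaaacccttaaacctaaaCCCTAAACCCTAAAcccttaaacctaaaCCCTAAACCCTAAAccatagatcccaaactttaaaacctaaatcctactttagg
chr1:17279626-17279718, in AT1TE57280 (ATDNAI27T9C): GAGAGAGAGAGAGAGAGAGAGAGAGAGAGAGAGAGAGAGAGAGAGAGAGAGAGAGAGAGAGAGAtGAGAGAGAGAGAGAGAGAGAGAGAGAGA
chr3:14202296-14202403, near the 5.8S rRNA gene AT3G41979: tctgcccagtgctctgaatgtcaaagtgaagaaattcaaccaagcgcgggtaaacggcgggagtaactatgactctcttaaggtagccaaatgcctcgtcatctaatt

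The ddb2 regions covered 159548 bp, or 0.134% of the nuclear genome. They were short, with a median of 101 bp and a range of 72 to 757 bp, against a median of 230 bp and a range of 192 to 2444 bp in the WT list. In both lists the shortest length was also the commonest, with 350 ddb2 and 880 WT regions. Whether the calling of regions set these lengths was not tested. Their fold enrichment, the ratio of immunoprecipitated over input DNA, ranged from 2.03 to 22.2 with a median of 4.70 (95% interval 4.64 to 4.76), against 2.35 to 14.8 with a median of 4.59 (4.55 to 4.66) in WT. A fold of at least 10 was reached by 26 ddb2 regions (2.23%) and by 25 WT regions (0.697%). The 5 lowest ddb2 regions had folds of 2.03 to 2.95. The 1166 regions took 644 distinct fold values, and 60.5% of them shared their exact fold with another ddb2 region, with 37 at 3.73.

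The ddb2 list held regions of more than 1 kind. Exactly 72 bp was listed for 350 regions and exactly 212 bp for 81, and 59 pairs of regions overlapped each other, 51 of them made of a region shorter than 212 bp and a region of 212 bp or more. The 858 shorter regions had a median fold of 4.48 (4.18 to 4.63) and the 308 longer ones of 5.28 (5.12 to 5.41). The shorter regions lay more often in protein-coding genes, at 54.7% (51.3 to 58.0%) against 31.8% (26.7 to 37.3%) of the longer ones, and less often in TEs, at 18.5% (15.985 to 21.3%) against 34.7% (29.4 to 40.3%). The GC content of the central 72 bp was 37.5% in the median in shorter and 30.6% in longer regions. Whether the length classes stand for the antibodies was not tested. Merging overlapping regions left 1107 loci.

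**Figure D1:**
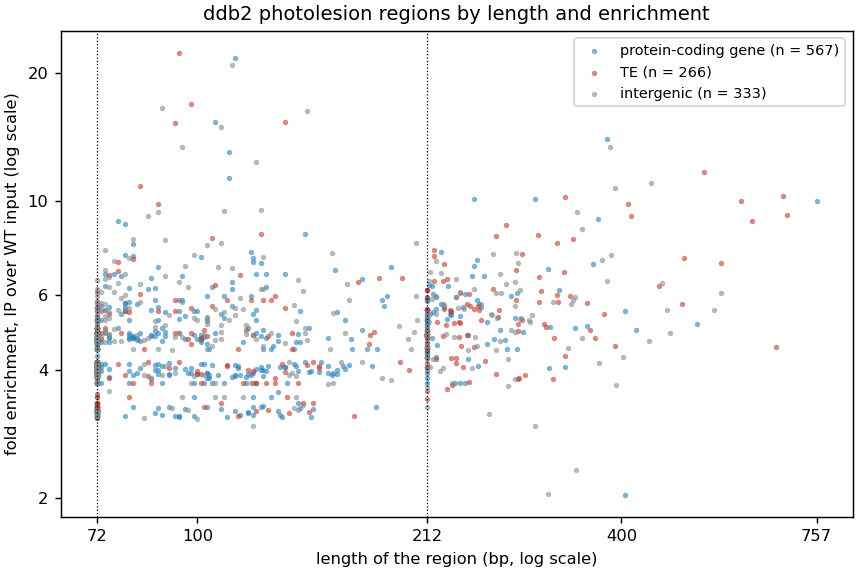
Length (bp, log scale) and fold enrichment over WT input (log scale) of each of the 1166 ddb2 regions, coloured by class. Dotted lines mark the recurring lengths of 72 and 212 bp, and all regions with a fold above 14 are shorter than 212 bp.

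The highest enrichment lay in simple repeats. The top region, chr4:4547921-4548014, had a fold of 22.2 and consisted of adenine and guanine throughout, with a pure GA stretch of 32 units, in an ATDNAI27T9A element of the pericentromere. In the WT list the overlapping region had a fold of 14.3, and in the uvr3 phrI, dcl4 and ago1 lists of 23.9, 17.4 and 18.6. A longer ddb2 region that overlapped the top region, chr4:4547802-4548018, had a fold of 7.66, below that of WT. The second, chr3:8414079-8414191 in an intron of AT3G23460, which RefSeq names as a methyltransferase superfamily gene, had a fold of 21.7 and a CA stretch of 25 units. The WT region there had a fold of 14.4, and those of uvr3 phrI, dcl4 and ago1 had 18.8, 18.0 and 20.6. An overlapping longer ddb2 region at this site, chr3:8413939-8414320, had a fold of 14.0. The third, chr2:5099955-5100066, was intergenic, with a fold of 20.9 and CT stretches of up to 33 units, and stood at 10.6 in the WT list and at 25.7, 17.6 and 21.2 in those of uvr3 phrI, dcl4 and ago1. The longer ddb2 region that overlapped it, chr2:5099977-5100190, had a fold of 6.78, again below that of WT. All lists were made against the same WT input, so these values are not independent of each other.

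The following regions were of the same kinds. Pure GA or CT stretches of 32 or 33 units lay in chr3:12670303-12670400 in a LIMPET1 element (fold 16.9 in ddb2, 13.5 in WT), chr4:659402-659544 at 224 bp from AT4G01520 (16.3 in ddb2, 7.37 in WT) and chr1:17279626-17279718 in an ATDNAI27T9C element (15.2 in ddb2, 6.95 in WT). chr3:10188094-10188182, near AT3G27510, held a run of 35 adenines or thymines and had a fold of 16.5 in ddb2 and 11.7 in WT. chr5:4254744-4254849 in CRN (AT5G13290), a receptor kinase-like gene of the CLAVATA pathway, held a CA repeat of 18 units and had folds of 15.3 in ddb2 and 10.2 in WT. chr1:15297957-15298089, in an ATREP18 element, held telomere-type repeats and had folds of 15.3 in ddb2 and 12.5 in WT. Several of these sites also held an overlapping longer ddb2 region with a lower fold. It was 5.09 at the LIMPET1 site, 5.60 at the ATDNAI27T9C site and 9.07 in CRN, each below the WT fold. Near AT3G27510 it was 13.3, above the WT fold. Which genotype was more enriched at a site thus depended on the ddb2 region taken. Only chr3:14202296-14202403, of these 10, held none of the repeats searched for. It lay 2380 bp from the 5.8S rRNA gene AT3G41979 and had folds of 14.9 in ddb2 and 5.38 in WT.

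Repeats were counted in the central 72 bp of every region, the length of the shortest ddb2 regions, and in 1652046 windows of 72 bp that tile the genome. The motifs, chosen after the sequences of the top regions had been seen, were GAGAGAGAGAGA, CACACACACACA, ATATATATATAT, AAAAAAAAAAAA and the telomere-type CCCTAAACCCTAAA, each on both strands. A match of 1 motif cannot be a match of another, but a region can hold several motifs side by side. A GA repeat was found in 42 ddb2 regions (3.60%, Clopper-Pearson interval 2.61 to 4.84%), against 1.28% (0.941 to 1.71%) of WT regions and 0.169% of genome windows. A CA repeat was found in 1.54% (0.917 to 2.43%) of ddb2 regions, 0.893% (0.611 to 1.26%) of WT regions and 0.0476% of windows, and the telomere-type repeat in 2.32% (1.53 to 3.35%), 1.03% (0.728 to 1.42%) and 0.0357%. Runs of 12 adenines or thymines stood at 2.66% in ddb2, 3.04% in WT and 0.717% in the genome. AT repeats were in 0 of 1166 ddb2 centres (upper bound 0.316%), 0.139% (0.0453 to 0.325%) of WT centres and 0.285% of windows, a difference that these counts cannot show. Over whole regions, which are longer in WT, the lists lay closer together. GA repeats were then in 4.20% (3.12 to 5.52%) of ddb2 and 3.12% (2.58 to 3.75%) of WT regions, and CA repeats in 1.97% (1.25 to 2.95%) of ddb2 and 1.76% (1.35 to 2.24%) of WT regions.

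The share of regions with a GA, CA or telomere-type repeat was larger at higher enrichment. It was 1.55% (0.506 to 3.59%) of the ddb2 regions with a fold under 4, 4.21% from 4 to 5, 7.11% from 5 to 6, 16.4% from 6 to 8, 34.8% from 8 to 10 and 61.5% (40.6 to 79.8%) at 10 or more. The WT regions ran over the same bins at 1.18%, 2.09%, 2.77%, 7.54%, 14.3% and 40%. Of the 26 ddb2 regions at 10 or more, 9 held a GA repeat, 6 a CA repeat, 4 a telomere-type repeat and 3 an A run somewhere in the region, and 20 held any of these 4. A GA or CT repeat is a pyrimidine run on 1 strand, and the 49 ddb2 regions with such a repeat had a median of 91.5% di-pyrimidine steps in their centre. A CA or TG repeat alternates pyrimidine and purine, and the 23 ddb2 regions with it had a median of 33.8%, while their median fold was 7.36 against 5.97 for the GA repeats.

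**Figure D2:**
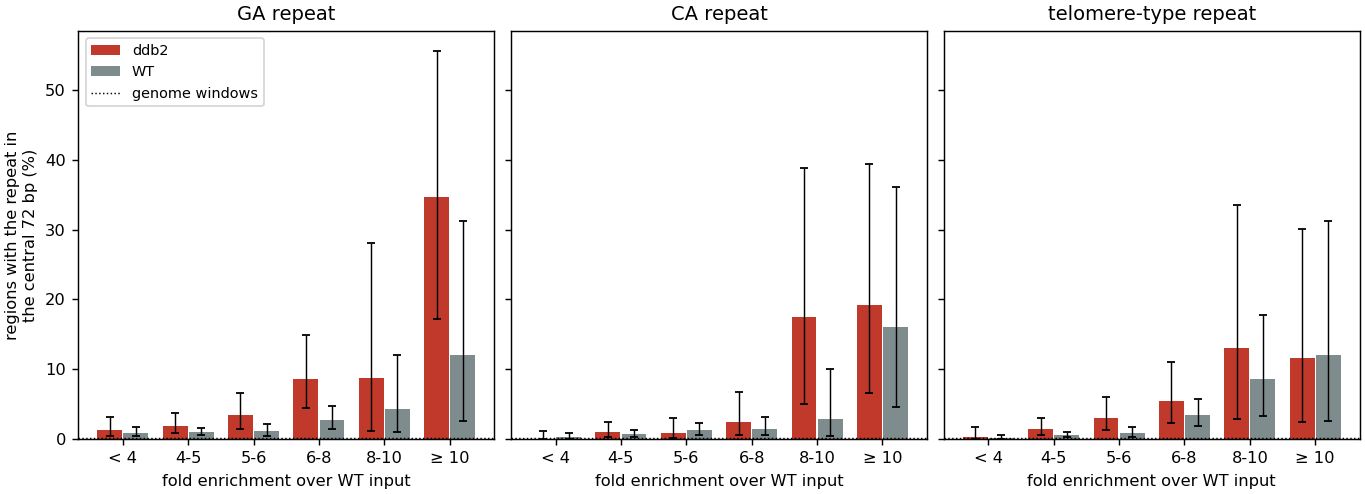
Share of regions (%) with a GA, CA or telomere-type repeat in the central 72 bp, by fold enrichment over WT input, for ddb2 and WT. Error bars are Clopper-Pearson 95% intervals and dotted lines give the share of genome windows. For GA repeats the ddb2 share is 1.24% under a fold of 4 and 34.6% at 10 or more.

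The telomere-type repeats lay mainly in ATREP18. This TE family is named in the annotation like the ATREP elements, which are non-autonomous Helitrons. Of 39 ddb2 regions with the repeat, 32 had their midpoint in an ATREP18 element and 36 were pericentromeric. In total, 46 ddb2 regions fell in ATREP18, or 17.8% (13.3 to 22.97%) of the 259 regions with an annotated TE at the midpoint, while ATREP18 makes up 1.28% of TE length. In WT it took 78 of 598 such regions, or 13.0% (10.4 to 16.01%). The ATREP18 regions of ddb2 had a median fold of 5.33 and a range of 3.28 to 15.3, and 44 of the 46 lay in the pericentromere. Of these regions, 39 were covered by WT regions.

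The element AT4TE18195 shows telomere-type stretches in an ATREP18 region, and AT2TE23575 that of a GA repeat in an ATDNAI27T9 element. Both are shown because they were also among the largest gains of methylation after UV-C given further on.
chr4:4219001-4219289, in AT4TE18195 (ATREP18), fold 5.24: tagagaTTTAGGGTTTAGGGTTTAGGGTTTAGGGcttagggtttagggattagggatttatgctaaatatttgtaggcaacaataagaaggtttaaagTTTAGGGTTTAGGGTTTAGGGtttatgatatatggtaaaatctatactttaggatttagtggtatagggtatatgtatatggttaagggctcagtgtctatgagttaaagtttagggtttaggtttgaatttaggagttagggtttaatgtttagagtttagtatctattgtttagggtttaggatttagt
chr2:5799778-5799849, in AT2TE23575 (ATDNAI27T9A), fold 4.71: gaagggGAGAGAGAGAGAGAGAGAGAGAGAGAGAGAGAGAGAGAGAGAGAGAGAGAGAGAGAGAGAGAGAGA

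Other families took shares of the 259 regions that were above or below their share of TE length. VANDAL elements, which are Mutator-type DNA transposons, held 46 regions (17.8%, 13.3 to 22.97%) with 9.31% of TE length, 20 of them in VANDAL17. ATENSPM elements, CACTA-type DNA transposons, held 23 (8.88%, 5.71 to 13.0%) with 4.72% of TE length. The small ATDNAI27T9 family held 13 regions (5.02%, 2.70 to 8.43%) with 0.360% of TE length, 10 of which carried a GA repeat, with folds of 3.35 to 22.2. All 3 LIMPET regions carried a GA repeat as well, with folds of 5.09 to 16.9. Below their share of TE length were the Helitron-type ATREP elements other than ATREP18, with 19 regions (7.34%, 4.47 to 11.2%) and 20.6% of TE length, and HELITRON elements, with 12 regions (4.63%, 2.42 to 7.95%) and 10.12%. The Gypsy-type ATHILA retrotransposons held 26 ddb2 regions, or 10.04% (6.66 to 14.4%), against 132 WT regions, or 22.1% (18.8 to 25.6%), at 19.2% of TE length. TNAT1A, a small family, held 6 ddb2 regions and 1 WT region.

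**Figure D3:**
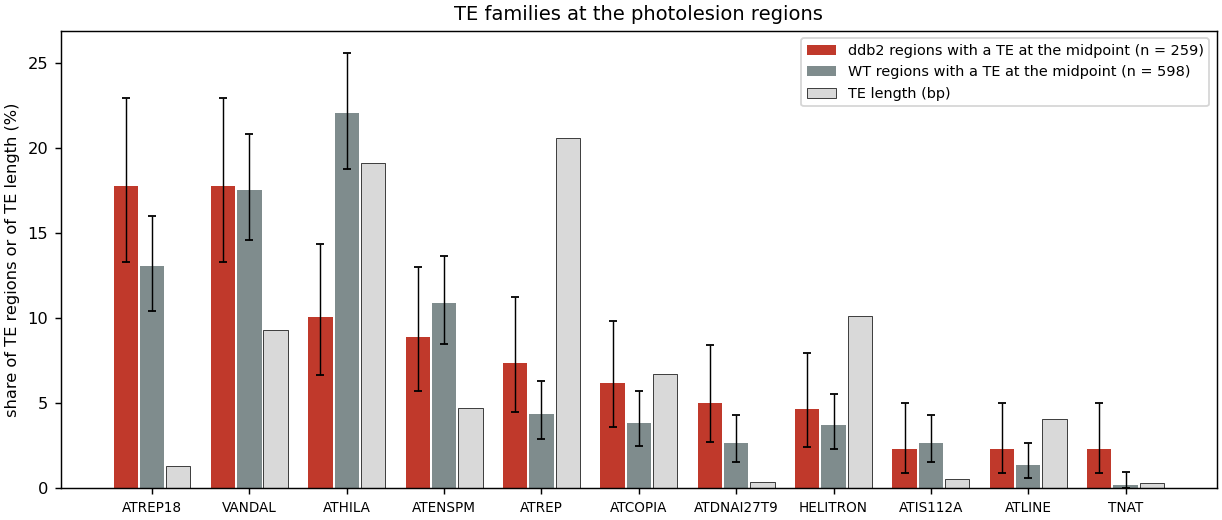
Share (%) of the regions with a TE at their midpoint that fell in each of the 11 named families with most ddb2 regions, for ddb2 (n = 259) and WT (n = 598), beside the share of total TE length. Error bars are Clopper-Pearson 95% intervals. ATREP18 is the leading family in ddb2 (17.8%, with VANDAL) and ATHILA in WT (22.1%).

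Over all regions, the classes were close to the composition of the genome. The midpoint lay in a TE or TE gene in 266 ddb2 regions (22.8%, 20.4 to 25.3%), against 17.4% (16.1 to 18.6%) in WT and 20.6% of the genome. In protein-coding genes lay 567 (48.6%, 45.7 to 51.5%), against 57.7% (56.0 to 59.3%) in WT and 49.3% of the genome, and 333 (28.6%, 25.98 to 31.2%) were intergenic, against 24.99% (23.6 to 26.4%) in WT and 30.1% of the genome. These intervals count every region as independent, although 115 ddb2 regions lay in overlapping pairs. The shares also differed between shorter and longer ddb2 regions, and no WT region was shorter than 192 bp. Whether the genotypes differ in these shares was not tested. With a fold of at least 5 the gene share of ddb2 was 35.8% and the intergenic share 38.2%. The median fold was 4.82 (4.66 to 4.89) for TE regions, 4.48 (4.14 to 4.61) for gene regions and 4.89 (4.79 to 5.11) for intergenic regions.

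Within and around genes, untranslated exons were over-represented among the ddb2 regions relative to their length. The 5' UTR held 9.26% (7.66 to 11.1%) of them, against 12.1% (11.1 to 13.2%) in WT and 4.52% of the genome, and the 3' UTR 7.98% (6.49 to 9.68%), against 6.67% (5.87 to 7.53%) in WT and 5.35% of the genome. Coding sequence held 24.4% (21.9 to 26.9%), against 27.8% (26.3 to 29.3%) in WT and 28.3% of the genome. Introns held 15.2% (13.2 to 17.4%), against 18.9% (17.7 to 20.3%) in WT and 15.2% of the genome. Upstream sequence within 1 kb of a gene was below its length, with 9.86% (8.21 to 11.7%), against 8.20% (7.32 to 9.15%) in WT and 14.0% of the genome. More than 1 kb from any gene lay 28.6% (26.1 to 31.3%) of the ddb2 regions, against 20.9% (19.6 to 22.3%) in WT.

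**Figure D4:**
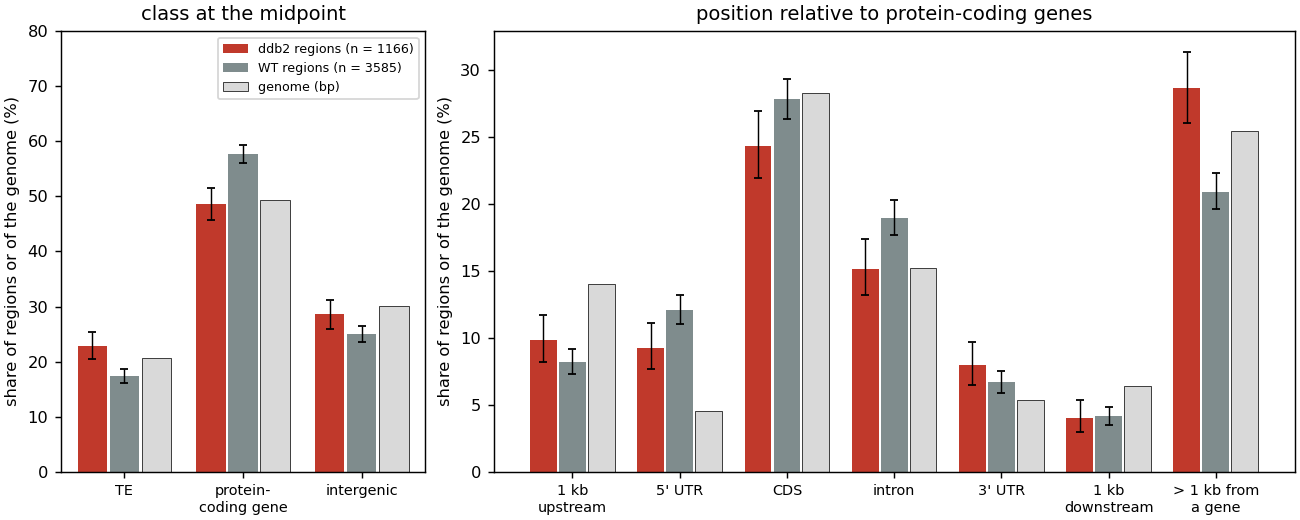
Share (%) of ddb2 regions (n = 1166), WT regions (n = 3585) and the genome (bp) by class at the midpoint and by position relative to protein-coding genes of the reference annotation. Error bars are Clopper-Pearson 95% intervals, and the 5' UTR stands at 9.26% in ddb2, 12.1% in WT and 4.52% of the genome.

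Along the chromosomes, the ddb2 regions were denser in the pericentromeres, taken as the gene-poor central zone in which gene coverage, averaged over 1 Mb, was less than 50% of its median along that chromosome. Together they make up 17.8% of the genome and held 304 ddb2 regions (26.1%, 23.6 to 28.7%), against 20.1% (18.8 to 21.4%) of WT regions. This is 14.3 regions per Mb in the pericentromeres and 8.80 per Mb in the arms for ddb2, against 34.0 and 29.3 per Mb in WT. The ddb2 pericentromeres were denser than the arms on each chromosome, by 1.39 times on chromosome 2 to 1.83 times on chromosome 1. In WT the ratios ran from 1.01 on chromosome 2 to 1.45 on chromosome 4. The median fold of pericentromeric ddb2 regions was 4.96 (4.85 to 5.17) and that of arm regions 4.60 (4.48 to 4.69). The numbers per chromosome were 309, 196, 221, 160 and 280 for chromosomes 1 to 5, near the share of each in the genome.

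**Figure D5:**
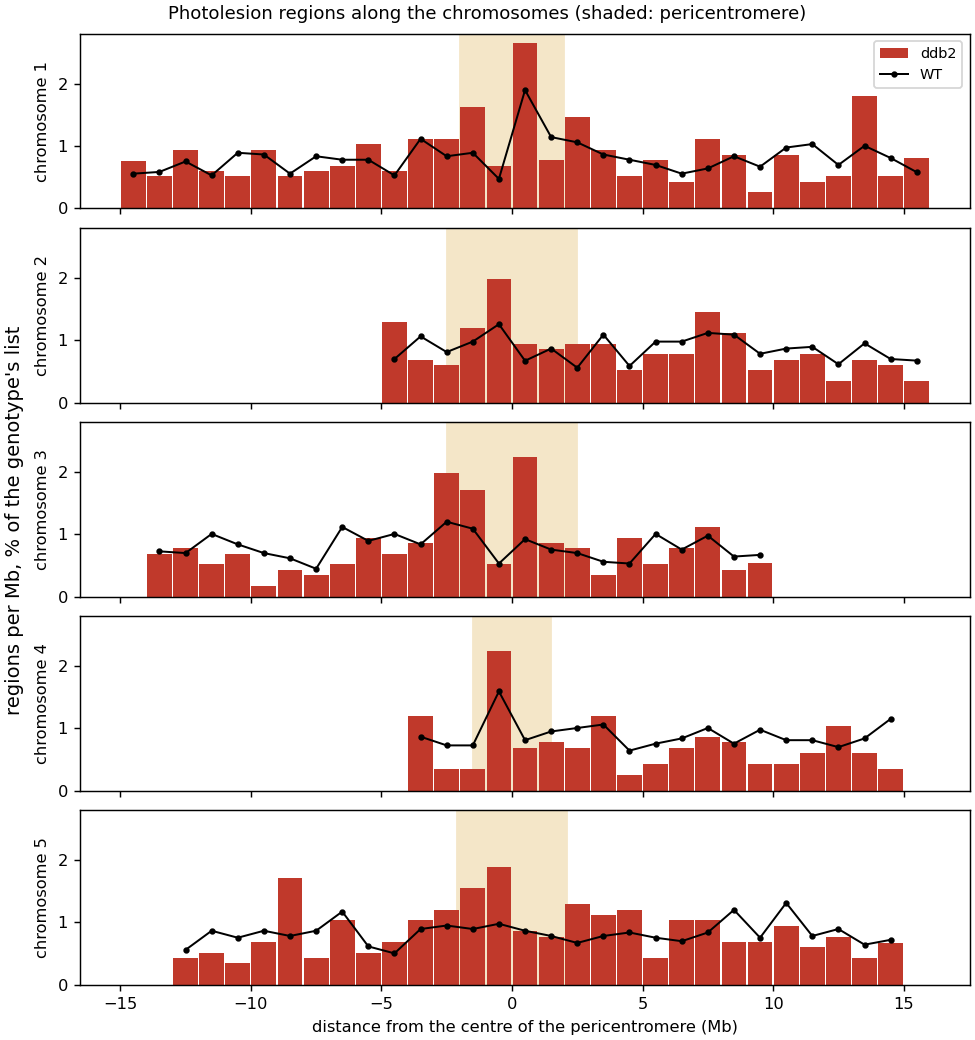
Regions per Mb as a percentage of the list of each genotype, in windows of 1 Mb by distance from the centre of the pericentromere (shaded), for ddb2 (bars) and WT (points and line) on the 5 chromosomes. The tallest ddb2 bar of each chromosome lies in the shaded zone, and these zones hold 26.1% of the list.

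Part of the ddb2 regions lay close to each other. The median distance to the nearest other region was 24.3 kb in ddb2 and 9.54 kb in the larger WT list. A neighbour with its midpoint within 1 kb was found for 238 ddb2 regions (20.4%), against 14.4% of WT regions, but overlapping regions of 1 site count here as neighbours. With overlapping regions merged, it was found for 139 ddb2 loci (12.6%), against 9.31% of WT loci. Within 10 kb the order turned, with 34.9% of ddb2 regions against 50.8% of WT regions having a neighbour. When regions less than 10 kb apart were joined, 409 of the 1166 lay in 147 groups, of which 47 held at least 3 regions and 1 held 13. After merging, 321 loci lay in 118 groups, of which 35 held at least 3. In bins of 100 kb, 531 of 1193 bins held no ddb2 region, and 19 bins with at least 5 held 154.

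The densest bins lay in the pericentromeres, except on chromosome 1. They held 16 ddb2 regions on chromosome 5 (bin 11700001-11800000), 15 on chromosome 4 (3900001-4000000), 13 on chromosome 2 (3600001-3700000) and 10 on chromosome 3 (13500001-13600000), with 17, 22, 19 and 7 WT regions. The main clusters of these bins shared sequence with each other. They were 5 clusters on chromosomes 2, 3, 4 and 5 with 49 ddb2 regions, and each of the 49 shared at least 1 stretch of 25 bp with such a cluster on another chromosome. Their 25-mers occurred in a median of 38.5 to 70 copies in the assembled nuclear chromosomes. Copies missing from the assembly are not counted. Folds in these clusters had medians of 5.29 to 5.73 in ddb2, against 3.68 to 4.27 in the 49 WT regions of the same spans. The highest of them was chr4:3953543-3953663, outside any annotated gene or TE, with a fold of 12.3 in ddb2 and 5.9999 in WT. Part of its sequence is close to the reverse primer that the study used for the centromeric repeats. Whether the clusters are copies of that repeat was not tested. Without these 5 clusters, 22.8% of the ddb2 regions were pericentromeric.

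chr4:3953543-3953663, from 1 of the 5 clusters: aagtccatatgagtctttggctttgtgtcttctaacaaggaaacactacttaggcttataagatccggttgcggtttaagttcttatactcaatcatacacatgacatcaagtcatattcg

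On chromosome 1 the densest bin, 28800001-28900000, lay in the arm and held 12 ddb2 and 9 WT regions. There, 9 separate regions with folds of 3.20 to 5.78 fell in 1 gene, AT1G76780, which RefSeq names as an HSP20-like chaperone and which overlaps VANDAL17 elements. The next genes by number were AT2G08986 with 8 regions (folds 2.03 to 7.89) and AT2G07981 with 4 (3.55 to 7.40), both uncharacterized and both in the shared cluster of chromosome 2. AT3G28770, a putative transmembrane protein gene, held 4 regions with folds of 4.72 to 5.62. PRORP2 (AT2G16650), a proteinaceous RNase P that trims tRNA precursors, held 3 with folds of 4.15 to 10.002, and AT1G40104 held 3 with 3.85 to 6.87. Among TEs, 3 regions each fell in the ATREP18 elements AT1TE52780 (folds 4.73 to 10.2), AT2TE15385 (4.61 to 8.96), AT1TE49650 (4.85 to 8.16) and AT1TE49425 (4.89 to 8.14). In all, 40 genes and 35 TEs had 2 or more ddb2 regions, and 26 genes and 19 TEs held at least 2 loci after overlapping regions were joined.

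Sequence that occurs more than once in the genome was measured because reads had to map to 1 place to be kept. Copies were counted in the assembled nuclear chromosomes. At least 50% of the 25-mers in the central 72 bp were repeated there in 12.7% (10.8 to 14.7%) of ddb2 regions, 6.61% (5.82 to 7.47%) of WT regions and 9.34% of windows. For intergenic regions the shares were 20.4% (16.2 to 25.2%) in ddb2, 9.26% (7.45 to 11.4%) in WT and 5.86% of windows. This share was larger at higher folds. It was 5.90% of the ddb2 regions under a fold of 4 and 65.4% (44.3 to 82.8%) of the 26 regions at 10 or more, against 7.30% and 32% (14.9 to 53.5%) of the WT regions. The part of repeated sequence in the enrichment was not tested.

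At least 50% of the length was covered by WT regions in 514 of the 1166 ddb2 regions (44.1%, 41.2 to 47.0%). WT regions covered 0.794% of the genome. By the same rule 206 of the 3585 WT regions (5.75%, 5.01 to 6.56%) were covered by ddb2 regions, which were the shorter ones, and 539 WT regions (15.0%) touched a ddb2 region. The covered share was larger among the more enriched ddb2 regions. It was 30.7% (25.7 to 36.1%) under a fold of 4, 35.7% from 4 to 5, 53.6% from 5 to 6, 72.8% from 6 to 10 and 92.3% (74.9 to 99.1%), or 24 of 26, at 10 or more. It was 61.2% (55.5 to 66.7%) in the pericentromeres and 38.1% (34.8 to 41.4%) in the arms. TE regions stood at 51.5% (45.3 to 57.7%), intergenic regions at 51.1% (45.5 to 56.5%) and gene regions at 36.5% (32.5 to 40.6%). The lists share the input library, and what part of the overlap comes from it was not tested.

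The 652 ddb2 regions not covered by WT regions were short and less enriched, with a median of 86 bp and a median fold of 4.31 (4.17 to 4.48), against 117.5 bp and 5.02 (4.89 to 5.23) for the 514 covered ones. They lay in genes in 55.2% and in pericentromeres in 18.1%, against 40.3% and 36.2% of the covered regions. The 2 that reached a fold of 10 were both GA repeats. They were chr3:18101248-18101358 in an intron of AT3G48820, a glycosyltransferase gene, with a fold of 11.3, a GA stretch of 40 units and an adjoining AT repeat, and chr1:12907608-12907690 in the LIMPET1 element AT1TE42080, with 10.8 and a GA stretch of 28 units. No WT region touched either of them.

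chr3:18101248-18101358, in AT3G48820: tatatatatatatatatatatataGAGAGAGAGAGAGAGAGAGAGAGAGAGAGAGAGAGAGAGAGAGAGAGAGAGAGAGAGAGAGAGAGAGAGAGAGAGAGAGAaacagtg

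Regions were also compared with the differentially methylated regions (DMRs) of ddb2 plants between 24h and time point 0, from 1 bisulfite library per time. The methods place time point 0 immediately after UV-C, while other passages of the study call its methylation level that before UV-C. A DMR was shared, by at least 50% of either interval, with 43 ddb2 regions (3.69%, 2.68 to 4.94%), and DMRs covered 2.56% of the genome. Of the 46 pairs, 44 were hyper-DMRs and 43 were in the CHH context, in which plants add methylation by small RNA-directed and CMT2 pathways, against 96.5% and 89.1% of all ddb2 DMRs. A DMR was present at 29 of 266 TE regions (10.9%, 7.42 to 15.3%), 10 of 333 intergenic regions (3.00%, 1.45 to 5.45%) and 4 of 567 gene regions (0.705%, 0.193 to 1.80%). The study reports that the DMRs of the mutants mainly overlap TEs. How much of each class DMRs cover was not measured, so these shares cannot be set apart from those of the class as a whole. ATREP18 gave 9 of the 43. The median fold of the 43 was 4.88 (4.61 to 5.55), and that of the other regions 4.69 (4.62 to 4.75).

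The levels that follow are those of the whole DMR, which can reach beyond the ddb2 region. The largest gain was at chr1:16010354-16010805 in the ATREP18 element AT1TE52780 (fold 6.30). CHH methylation there was 33.2% at 24h and 0.858% at time point 0. At AT4TE18195, shown above, it was 32.6% at 24h and 5.47% at time point 0. At chr2:565888-565959, which was intergenic, the DMR spanned positions 565850 to 566100. Its CHH methylation was 27.8% at 24h and 3.05% at time point 0. At AT2TE23575 the CHG level was 58.0% at 24h and 33.3% at time point 0, and the CHH level 43.0% and 22.9%. At chr2:3529966-3530277 in AT2TE15385 the CHH level was 40.9% at 24h and 17.2% at time point 0. The DMR at the GA repeat chr3:12670303-12670400, the fourth most enriched ddb2 region, spanned positions 12670300 to 12670800. This DMR had 37.6% CHH methylation at 24h and 16.9% at time point 0. Over the 41 pairs of a ddb2 region and a CHH hyper-DMR, in which a DMR can stand more than once, the median gain was 13.9 percentage points (11.97 to 17.3), close to the 13.3 points (13.2 to 13.4) over all 8709 CHH hyper-DMRs of ddb2.

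No listed gene of photolesion repair, UV signalling, small RNA or DNA methylation pathways carried a ddb2 region in its body. Of the 41 genes, among them DDB2, DDB1A, CUL4, the photolyase genes PHR1 and UVR3, and the methyltransferase genes DRM2, CMT2, CMT3 and MET1, 0 overlapped a region, against 2.14% of all 27206 protein-coding genes. Within 1 kb on each side there were 2 of the 41, against 3.71% of all genes. With 41 genes, neither count can be told apart from the share over all genes. ROS1, a DNA glycosylase that removes methylcytosine, had a 72 bp region of fold 4.70 in its upstream kb at chr2:15315688-15315759, with no WT region there. UVH1, the XPF-type nuclease subunit of excision repair, had a region of fold 3.09 beside it at chr5:16477500-16477644, in the coding sequence of a neighbouring gene, with a fold of 5.39 in WT. For TEs, the share with a ddb2 region was 0.92% of 31189.

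Di-pyrimidine steps were somewhat more frequent in the regions than in the genome. In the central 72 bp they made up a median of 56.3% (56.3 to 57.7%) of the steps in ddb2, 57.7% in WT and 54.9% in genome windows. Over whole regions the median share of TT steps was 23.9% in ddb2 and 24.0% in WT, against 23.1% of all steps in the genome. CC steps had medians of 5.69% in ddb2 and 6.34% in WT, against 6.75% of all steps in the genome. For TT and CC, a median over short regions and a share of all steps are unlike measures. The study stated that it could not identify a significant di-pyrimidine bias at damaged regions. Its own Mann-Whitney tests by strand and class nevertheless gave very small p-values for some ddb2 comparisons, such as CC steps in damaged genes, and not for others. A pyrimidine run of at least 20 bases on 1 strand was found in 7.20% of the ddb2 centres, 5.05% of the WT centres and 0.918% of windows. In TE regions the mean di-pyrimidine share was 59.8% in ddb2, 58.9% in WT and 54.3% in windows.

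Organelle-like sequence was rare. In 3 ddb2 regions at least 50% of the 25-mers occur in the mitochondrial or chloroplast genome, with folds of 5.11, 5.58 and 5.34, and all of them lay on chromosome 2 between positions 3265344 and 3332450. The WT list had 2 such regions in the same stretch, with folds of 4.51 and 3.27.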

How the data were processed

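The study measured photolesions in UV-C-treated leaves by immunoprecipitation of genomic DNA and sequencing. The authors mapped the reads with Bowtie 1.1.2, keeping reads with a single position on TAIR10, called regions against the WT input with MACS2 2.1, and deposited 1 list per genotype whose value is a fold enrichment, a ratio of immunoprecipitated over input DNA. The authors' DMR lists give methylation levels as a score, a fraction written with a decimal comma, here turned into percent. Their small RNA tables were used only for the annotation text (genes and TEs, with the TE alias), and 60 value columns in them that match no sample were not used. The DMR lists' own change column was not used.

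Classes were taken at the midpoint of a region, TEs before genes. Gene parts came from the RefSeq TAIR10.1 annotation, in which 26710 of the 27206 protein-coding genes of the authors' annotation were found by ID. Regions were overlapped, grouped and searched for repeats and 25-mers with Python 3.11.15, numpy 2.4.6 and pandas 2.3.3, and interval code was tested on simulated data. Shares have exact Clopper-Pearson intervals and medians order-statistic intervals (95%, scipy 1.17.1). Named regions followed a fixed rule: the 10 highest by fold, the 5 highest of each class and chromosome, the 5 lowest, the 10 genes and TEs with most regions, the 10 highest shared with WT, the 5 highest in all lists, the 5 highest and 5 largest gains with a DMR, the densest bin of each chromosome and genes of a repair and methylation list. The list held 42 genes, and 1 was left out because its name disagreed with the annotation. The members, lists and rules were chosen with earlier results of these data known, and the repeat motifs and the length classes after the regions had been seen. Read depth per region is not in the lists. Alternatives changed the class rule, fold minimum, zone, windows and overlap rule.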

Additional observations from a re-analysis of the deposited data

How the results depend on the processing

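Alternatives that restrict regions by length, merge overlapping regions, leave out the 5 clusters of shared sequence or search whole regions for repeats were chosen after seeing the data. With a fold of at least 5, 416 ddb2 regions covering 72991 bp were left, with 25.96% in TEs, 35.8% in protein-coding genes, 38.2% intergenic and 35.8% pericentromeric. Among regions shorter than 212 bp, 18.5% lay in TEs, 54.7% in genes, 22.8% in pericentromeres and 40.8% in WT regions, and the median fold was 4.48. Among regions of 212 bp or more, 34.7% lay in TEs, 31.8% in genes, 33.4% between genes, 35.1% in pericentromeres and 53.2% in WT regions, and the median fold was 5.28. Giving genes precedence over TEs left 19.98% in TEs. The pericentromeric share was 18.8% with a zone under 25% of the median gene coverage, 35.7% with 3 Mb on each side, and 22.8% without the 5 clusters. The zone under 25% took 8.87 to 14.9% of the length of a chromosome, and that of 3 Mb on each side 19.7 to 32.3%. The share in WT regions was 47.9% when 1 bp was enough, 13.8% when 50% of both regions was required and 54.9% for midpoints within 1 kb. The mean fold was 4.99. With windows of 2 kb, 13.9% of the regions were upstream and 23.2% more than 2 kb from a gene. With 1 kb on each side, 2 repair and methylation genes had a region, and over whole regions 9.18% of the ddb2 regions, against 6.61% of the WT regions, held a GA, CA or telomere-type repeat. With overlapping regions merged, 12.6% had a neighbour within 1 kb. In all, 30 values moved by more than their counting error or, for counts, by over 1.5 times, and 22 did not. For subsets, the cause is the choice of regions itself, and for the others it was not tested. No paired analysis was possible because each group had 1 library per antibody. No replicate could be left out for the same reason.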
